A study of Mus musculus with 6 samples.

Results

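The integrin and laminin genes of the mouse were followed from embryonic stem cells (ESCs) to epiblast-like cells (EpiLCs), as 38 of the 24736 genes in the deposited RNA-seq table. They were chosen by symbol, as every alpha or beta integrin gene (27 genes) and every laminin alpha, beta or gamma chain gene (11 genes) that the naming pattern Itga, Itgb, Lama, Lamb or Lamc plus a number or letter finds. The pattern also takes in Itgbl1, an integrin beta-like protein that is no receptor subunit, and leaves out Itga2b. RNA was sequenced from WT cells, the XY HM1 TetON mouse ESC line, with 3 biological replicates of each group by the labels. ESCs (0 h) had been kept in knockout DMEM with 10% serum and 1000 U/ml LIF, on inactivated feeder fibroblasts by the culture methods. EpiLCs were taken after 48 h in N2/B27 medium to which bFGF (10 ng/ml) and the WNT secretion inhibitor LGK974 (5 µM) had been added, without serum and after the feeders had been removed by letting them adhere. Both groups come from a single line. The changes of medium, serum, LIF, bFGF, LGK974, feeders, matrix (gelatin-coated dishes for EpiLCs) and time cannot be told apart in the comparison.

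Integrins are cell surface receptors made of an alpha and a beta chain that join the extracellular matrix to the actin cytoskeleton. The alpha chain largely sets the ligand: alpha3, alpha6 and alpha7 bind laminins, alpha5, alphaV and alpha8 bind proteins with the RGD motif such as fibronectin and vitronectin, and alpha1, alpha2, alpha10 and alpha11 bind collagens. Laminins are secreted trimers of an alpha, a beta and a gamma chain that build basement membranes, the sheets on which epithelia such as the epiblast rest. Mouse ESCs secrete laminins themselves, and signalling from laminin through beta1 integrins is needed for the epiblast to polarize in the implanting embryo.

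The libraries held between 16967741 and 35096210 expected counts, and 3 counts, taken as the floor of detection for counting error alone, came to 0.0855 CPM in the deepest library and 0.177 CPM in the shallowest. The group labels fitted their markers: the 6 naive pluripotency genes summed to between 1465 and 1936 TPM (a transcript level scaled for transcript length and library size) in ESCs and between 47.1 and 67.3 TPM in EpiLCs, and all 6 fell. The 5 EpiLC markers summed to between 292.9 and 399 TPM in ESCs and between 2055 and 2125 TPM in EpiLCs, and all 5 rose. Pou5f1, expressed throughout, lay between 1237 and 1574 TPM and did not pass the test. ESC replicate 2 stood apart. The 12 fibroblast markers summed to 294.9, 1469 and 103.9 TPM in ESCs and to between 82.1 and 90.04 TPM in EpiLCs (3 values of a group are given here and throughout in the order of the replicate numbers). All 12 were highest in ESC replicate 2, and 4 of the 10 tested fell. In EpiLCs a large part of the sum was Acta2 (47.8, 16.8 and 48.9 TPM) and Thy1 (20.1, 23.8 and 22.2 TPM). Both overlapped between the groups, as did Col3a1, whereas Col1a1 and Col1a2 were higher in every ESC library than in any EpiLC library. In bulk RNA, fewer cells of a type and less RNA per cell cannot be told apart.

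Laminin chains fell from ESCs to EpiLCs, whereas integrin genes moved in both directions. With edgeR's quasi-likelihood test, 32 of the 38 genes had enough counts to be tested, of which 17 fell, 5 rose and 10 did not pass an adjusted p of 0.05. Across all 14468 genes tested, 45.4% were called, 22.6% as higher and 22.8% as lower in EpiLCs. Of the laminins, 10 of the 10 chains tested fell, with a median log2 fold change of -1.45 and a range from -2.99 to -0.78. A fall beyond -1 on the log2 scale was found for 8 of them, against 11.5% of all genes tested. Of the 22 integrin genes tested, 7 fell and 5 rose, with a median log2 fold change of -0.60. A fall beyond -1 was found for 6 of these and a rise beyond 1 for 4, against 11.5% and 8.78% of all genes tested. Among them, Itga10, Itgam, Itga11 and Itgal had low counts in the group where they were low, and all 4 left the test under a filter of 10 counts in every sample. With that filter 12852 genes were tested, of which 2843 were lower and 2891 higher, and 5 integrins were lower and 3 higher. The 5 integrin genes that rose were a share near that of all genes. The median over all genes tested was -0.0017. Counts without single libraries ranged from 8 to 10 laminins lower, from 4 to 10 integrins lower and from 4 to 6 integrins higher. The 4 integrins lower were obtained without EpiLC replicate 1 and also without EpiLC replicate 3, and the 10 without ESC replicate 3. Over the whole table, 2100, 2539 and 3431 genes were lower in these fits, against 3304 with all libraries.

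**Figure D1:**
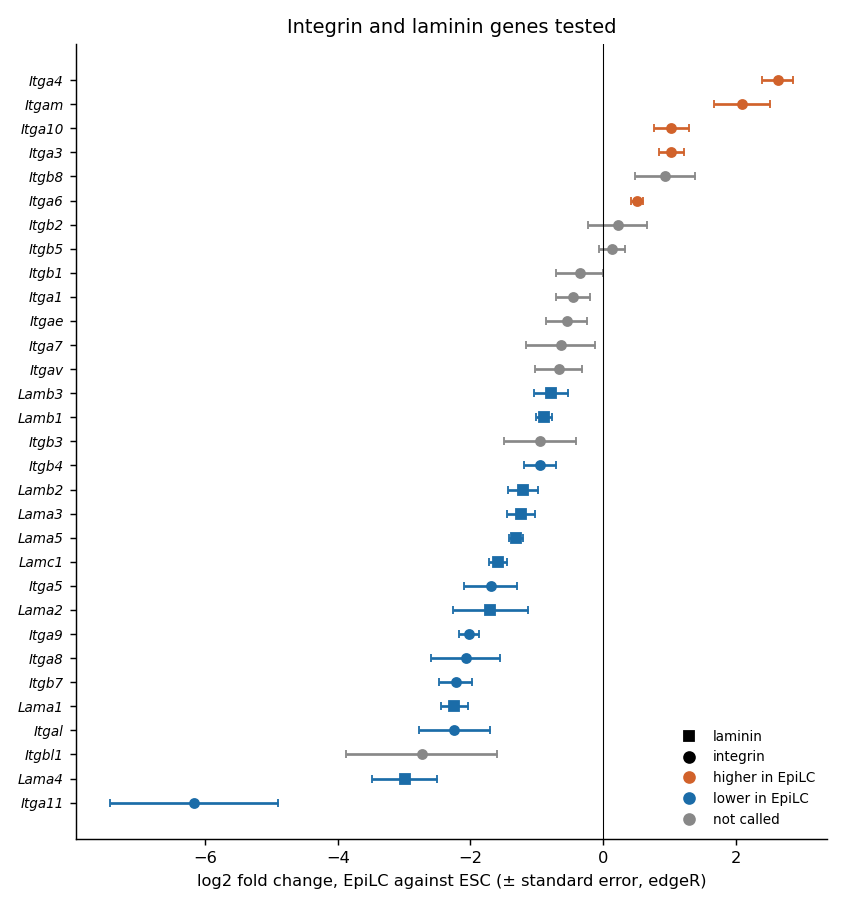
Log2 fold change from ESC to EpiLC (x axis) of integrin and laminin genes tested, each a row, with bars of 1 standard error from edgeR on 3 libraries a group; squares are laminins, circles integrins, and colour gives the call at an adjusted p of 0.05. The laminins shown lie between -2.99 and -0.78, and the integrins spread from -6.16 (Itga11) to 2.64 (Itga4).

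The alpha chain distinguishes laminin isoforms. Lama5, the alpha chain of the main laminins of the epiblast basement membrane, stood at 56.6, 60.9 and 61 TPM in ESCs, against 22.9, 29.2 and 22.6 TPM in EpiLCs. The ESC libraries were close together and all above the EpiLC libraries, a fall of log2 fold change -1.31 (SE 0.10, adjusted p = 0.000211). Lama1, the alpha chain of the laminin first deposited in the early embryo, stood at 13.4, 21.6 and 20.9 TPM in ESCs and at 4.47, 4.24 and 3.53 TPM in EpiLCs. Again no EpiLC library reached an ESC library, and the fall was larger, at -2.24 (SE 0.20, adjusted p = 0.000324). Lama4, the alpha chain of laminins in vessel walls and mesenchyme, stood at 4.91, 9.52 and 2.63 TPM in ESCs and at 0.80, 0.90 and 0.50 TPM in EpiLCs. Its ESC libraries differed more among themselves, with replicate 2 highest and replicate 3 lowest. The fall of -2.99 (SE 0.49, adjusted p = 0.00331) was -2.41 (adjusted p = 0.00206) without ESC replicate 2. Lama3, which belongs to the laminin of stratified epithelia, was low, at 2.10, 2.03 and 1.64 TPM in ESCs against 0.84, 1.04 and 0.73 TPM in EpiLCs. The groups were separate, with a log2 fold change of -1.23 (SE 0.21, adjusted p = 0.00384). Lama2, the muscle chain, was the lowest, between 0.17 and 0.76 TPM in ESCs and between 0.08 and 0.18 TPM in EpiLCs. Its groups overlapped, and its call at -1.70 (SE 0.57, adjusted p = 0.0461) was lost without any single library except ESC replicate 3. The adjusted p was then between 0.0908 and 0.134, and the log2 fold change was -1.14 without ESC replicate 2.

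The beta1 and gamma1 chains are shared by most laminins. Lamb1 stood at 95.9, 114.6 and 89.1 TPM in ESCs and at 54.8, 64.1 and 48.7 TPM in EpiLCs. All EpiLC libraries were lower, by a log2 fold change of -0.89 (SE 0.12, adjusted p = 0.00161). Lamc1 had the highest level of all laminin chains in ESCs, at 124.1, 146.7 and 166 TPM, and fell to 50.7, 56.8 and 43.7 TPM in EpiLCs. The groups were far apart, with a log2 fold change of -1.58 (SE 0.13, adjusted p = 0.000262). The chain in the lead therefore changed: Lamc1 was above Lamb1 in all 3 ESC libraries and below it in all 3 EpiLC libraries, and the log2 ratio of Lamc1 to Lamb1 went from 0.54 ± 0.31 to -0.15 ± 0.03 (SD, n = 3). This difference of -0.69 had p = 0.1 in the exact permutation test, two-sided, which is the smallest p that 3 against 3 libraries can give.

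Lamb2, which replaces beta1 in laminins of vessels and synapses, stood at 13.3, 21.7 and 11.8 TPM in ESCs and at 6.71, 7.80 and 6.39 TPM in EpiLCs. The groups were separate (log2 fold change -1.21, SE 0.23, adjusted p = 0.00544), with ESC replicate 2 well above the rest, and without it the value was -0.90 (adjusted p = 0.00110). Lamb3, a beta chain of epithelial laminin, stood at 1.82, 1.53 and 1.40 TPM in ESCs and at 0.82, 1.27 and 0.77 TPM in EpiLCs. Its groups did not overlap, but EpiLC replicate 2 came close to the lowest ESC library, and the call (-0.78, SE 0.26, adjusted p = 0.0451) was lost without ESC replicate 1, ESC replicate 2, EpiLC replicate 1 or EpiLC replicate 3, at an adjusted p between 0.0567 and 0.156. The log2 fold change was then between -0.81 and -0.65. Lamc1 lies at chr1:153218922-153332786 on GRCm38.p6. Lamc3, another gamma chain, stayed between 0 and 0.06 TPM and was not tested.

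**Figure D2:**
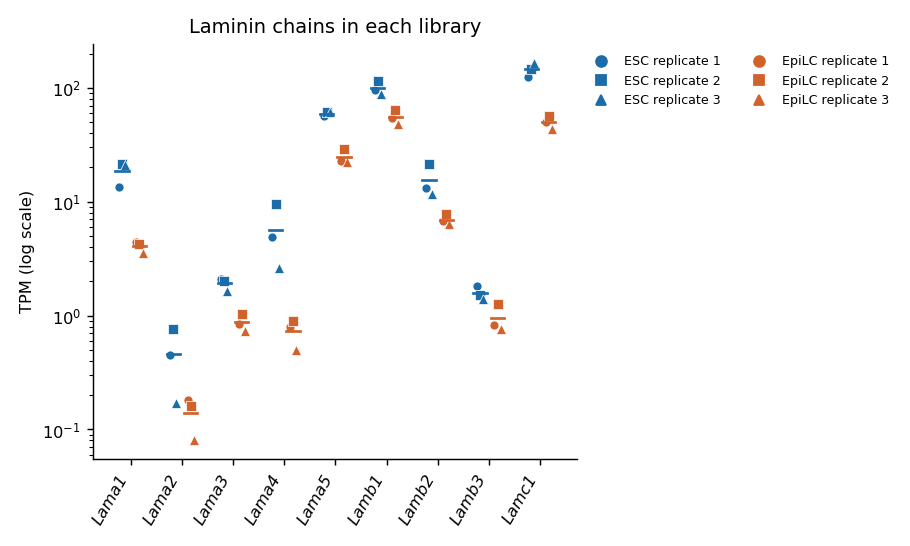
Level (TPM, log axis) of laminin chains in each library, with the replicate given by the marker, the group by colour and the group mean by a bar. Every ESC library lies above every EpiLC library for the chains shown except Lama2, which overlaps, at 0.17 TPM in ESC replicate 3 and 0.18 TPM in EpiLC replicate 1.

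Read as trimers, the transcripts of 11 laminin chains summed to 320.9, 391.3 and 363.3 TPM in ESCs and to 144.8, 168.3 and 128.4 TPM in EpiLCs. The sum was lower in each EpiLC library than in any ESC library. Among the 5 alpha chains, Lama5 took 73%, 64.2% and 70.7% in ESCs and 78.4%, 82.1% and 82.3% in EpiLCs. Lama1 took 21.4% ± 3.63 and 13.4% ± 1.74 (SD, n = 3), and Lama4 took 6.48% ± 3.50 and 2.37% ± 0.48. The share of Lama5 was thus higher in every EpiLC library although its level was lower. The log2 ratio of Lama1 to Lama5 differed by -0.90 between the groups, without overlap, with the exact permutation p at its minimum of 0.1. Lamb1 made up 85.5% ± 2.09 of beta chain transcripts in ESCs and 87.6% ± 0.37 in EpiLCs.

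For each of 14 known trimers, the chain with the lowest TPM was taken as a description of what the transcripts could supply at most. In the alpha5-beta1-gamma1 trimer this chain was Lama5 in all 6 libraries, with a mean ± SD of 59.5 ± 2.53 TPM in ESCs (n = 3), against 24.9 ± 3.71 TPM in EpiLCs (n = 3). In the alpha1-beta1-gamma1 trimer it was Lama1 in all 6 libraries, at 18.6 ± 4.54 and 4.08 ± 0.49 TPM. So the alpha chain, not the more abundant beta1 and gamma1 chains, had the lowest level in both main embryonic laminins before and after differentiation.

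Primitive endoderm, which can arise in ESC cultures, also secretes laminins. Its 10 markers summed to 74.5, 50.3 and 41.7 TPM in ESCs, against between 12.5 and 13.1 TPM in EpiLCs, with 6 lower and 1 higher of 10 tested. Gata6, a defining factor of that lineage, stood at 15, 7.40 and 7.84 TPM in ESCs and between 0.32 and 0.48 TPM in EpiLCs. The part of these cells in the fall of laminins was not tested.

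Of the integrin alpha chains that bind laminin, 2 of 3 rose and 0 of 3 fell in edgeR's test, against 22.6% and 22.8% of all genes tested. With 3 genes, the count is only a description. Itga6, the main laminin receptor chain of pluripotent cells, stood at 56.2, 56.5 and 66.1 TPM in ESCs and at 88.3, 85.3 and 90.9 TPM in EpiLCs. All EpiLC libraries were above all ESC libraries, a small but tight rise of log2 fold change 0.51 (SE 0.09, adjusted p = 0.00348). Itga3 stood at 13.7, 13.6 and 10.4 TPM in ESCs and at 31.1, 29.1 and 19.5 TPM in EpiLCs. It rose by 1.03 (SE 0.19, adjusted p = 0.00527), also without overlap. Itga7, the muscle laminin receptor chain, stood at 0.62, 2.56 and 1.03 TPM in ESCs and at 1.14, 0.99 and 0.62 TPM in EpiLCs. Its groups overlapped and it did not pass the test (-0.64, SE 0.53, adjusted p = 0.349), with 0.08 without ESC replicate 2 and -1.01 without ESC replicate 1.

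Of the RGD-binding alpha chains, 2 of 3 fell and 0 of 3 rose in the same test, against 22.8% and 22.6% of all genes tested, again a description of 3 genes. Itga5, the fibronectin receptor chain, stood at 36, 69.4 and 21.5 TPM in ESCs and at 14.3, 15.6 and 10.7 TPM in EpiLCs. The groups did not overlap, yet the ESC libraries spread widely, with replicate 2 highest. The fall was -1.69 (SE 0.40, adjusted p = 0.0134), with -1.14 (adjusted p = 0.00810) without ESC replicate 2 and -1.55 (adjusted p = 0.0544) without EpiLC replicate 3. Itga8, which binds fibronectin and nephronectin, stood at 8.29, 10.95 and 2.42 TPM in ESCs and at 1.89, 2.15 and 1.25 TPM in EpiLCs. ESC replicate 3 was only just above the EpiLC libraries. The fall of -2.07 (SE 0.52, adjusted p = 0.0167) missed the threshold without EpiLC replicate 1 (-2.12, adjusted p = 0.0567) or EpiLC replicate 3 (-1.88, adjusted p = 0.0640). Itgav, which pairs with several beta chains, stood at 22.4, 42.4 and 15.6 TPM in ESCs and at 18.3, 20.6 and 13.3 TPM in EpiLCs. These ranges overlapped, and its -0.67 (SE 0.35, adjusted p = 0.159) became -0.93 (adjusted p = 0.0366) without ESC replicate 3 and -0.18 (adjusted p = 0.502) without ESC replicate 2.

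The bases just upstream of 3 of these genes are printed to place the receptor chains that moved apart beside their shared partner: Itga5 (lower), Itga3 (higher) and Itgb1 (not called). They are RefSeq promoter sequences on GRCm38.p6, read 5′ to 3′ in the direction of the gene and ending at the annotated start for Itga5 and Itgb1. For Itga3, only the bases that no annotated gene covers are given. Capitals mark GC boxes, searched as GGGCGG on both strands.
Itga5, chr15:103366792-103367041, minus strand: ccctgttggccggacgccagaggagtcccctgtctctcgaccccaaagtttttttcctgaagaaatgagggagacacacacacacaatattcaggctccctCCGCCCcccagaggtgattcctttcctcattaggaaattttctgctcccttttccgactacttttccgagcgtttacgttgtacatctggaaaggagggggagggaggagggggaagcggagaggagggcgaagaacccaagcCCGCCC
Itga3, chr11:95076845-95076964, minus strand: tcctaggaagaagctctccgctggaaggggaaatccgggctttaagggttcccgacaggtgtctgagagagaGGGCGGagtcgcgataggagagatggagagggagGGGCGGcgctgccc
Itgb1, chr8:128685404-128685653, plus strand: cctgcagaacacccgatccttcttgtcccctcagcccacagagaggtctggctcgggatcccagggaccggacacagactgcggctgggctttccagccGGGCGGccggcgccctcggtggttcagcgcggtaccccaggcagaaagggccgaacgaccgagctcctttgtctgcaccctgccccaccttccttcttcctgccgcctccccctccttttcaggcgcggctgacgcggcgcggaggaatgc
The stretches hold 2, 2 and 1 GC boxes, in 120 bases for Itga3 and 250 for Itga5 and Itgb1. Promoter entries matched 24 of the 38 genes, and a GC box stood in the 250 bases before the annotated start in 33.0% of 27025 RefSeq promoters. Among the genes with an entry, 3 of 10 that fell and 3 of 4 that rose had one there. The 3 printed genes were picked and do not stand for the rest. A match is a description of letters and not a site.

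The collagen receptor chains were low, with no library above 3.99 TPM apart from ESC replicate 2 for Itga11. Itga11, a collagen receptor chain of fibroblasts, stood at 3.49, 26.4 and 1.87 TPM in ESCs and at 0.13, 0.27 and 0.04 TPM in EpiLCs. ESC replicate 2 was far above the other ESC libraries, which were themselves above all EpiLC libraries. Its log2 fold change of -6.16 (SE 1.26, adjusted p = 0.00782) was -4.19 (adjusted p = 0.00177) without ESC replicate 2. With only 11, 21 and 3 counts in EpiLCs, the size of this fall is uncertain. Itga1 stood at 3.45, 3.99 and 1.97 TPM in ESCs and at 2.23, 2.40 and 2.45 TPM in EpiLCs. The groups overlapped, and the value of -0.45 (SE 0.26, adjusted p = 0.188) was -0.69 (adjusted p = 0.0105) without ESC replicate 3 and -0.24 (adjusted p = 0.434) without ESC replicate 2. Itga10, a cartilage receptor chain, rose by 1.03 (SE 0.26, adjusted p = 0.0178), but only from between 0.22 and 0.30 TPM to between 0.49 and 0.65 TPM. Its call was lost without EpiLC replicate 1 (1.08, adjusted p = 0.0604) or EpiLC replicate 2 (0.92, adjusted p = 0.0763). Itga2, 25.979 kb from Itga1 on chromosome 13, lay between 0.03 and 0.60 TPM and was not tested.

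The alpha4 and alpha9 chains, which share ligands such as VCAM1 and a fibronectin segment, moved in opposite directions. Itga4 stood at 0.31, 0.27 and 0.21 TPM in ESCs and at 1.83, 1.85 and 1.35 TPM in EpiLCs. The groups were far apart in relative terms, with the highest rise of the genes described here (2.64, SE 0.23, adjusted p = 0.000312), although the level stayed low. Itga9 stood at 6.21, 8.19 and 8.25 TPM in ESCs and at 2.00, 1.94 and 1.85 TPM in EpiLCs. Its fall of -2.02 (SE 0.15, adjusted p = 0.000163) was without overlap and had the lowest adjusted p of all the integrin and laminin genes. The beta7 chain, partner of alpha4 and alphaE in lymphocytes, stood at 6.93, 7.93 and 11.6 TPM in ESCs and at 1.85, 2.24 and 1.80 TPM in EpiLCs. All ESC libraries exceeded all EpiLC libraries, so that Itgb7 fell (-2.22, SE 0.24, adjusted p = 0.000665) while its partner Itga4 rose. In each library Itga4 had the lower level of the pair, so the lowest chain of alpha4-beta7 went from 0.263 ± 0.050 to 1.68 ± 0.28 TPM (SD, n = 3). The other partner, Itgae, lay between 0.36 and 0.85 TPM in all libraries and did not pass the test (-0.55, adjusted p = 0.187). Its ligand Cdh1 (E-cadherin) rose.

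Itgb1, the beta chain of most matrix receptors, had the highest level of all 38 genes, at 223.1, 476.6 and 166.5 TPM in ESCs and at 246.6, 248.4 and 207.5 TPM in EpiLCs. The EpiLC libraries lay within the range of the ESC libraries, of which replicate 2 was far above the rest. It did not pass the test (-0.35, SE 0.35, adjusted p = 0.447), and its direction turned to 0.21 (adjusted p = 0.213) without ESC replicate 2, with -0.62 (adjusted p = 0.124) without ESC replicate 3. Itgb5, an alphaV partner for vitronectin, stood at 28.3, 47.2 and 27.6 TPM in ESCs and at 39.03, 39.5 and 38.3 TPM in EpiLCs. The EpiLC libraries were almost equal and lay between ESC replicate 2 and the other ESC libraries. Its 0.13 (SE 0.20, adjusted p = 0.615) became 0.42 (adjusted p = 0.00307) without ESC replicate 2, -0.0030 without ESC replicate 1 and 0.01 without ESC replicate 3. Itgb4, which pairs only with alpha6 and anchors epithelia through hemidesmosomes, stood at 2.03, 2.38 and 2.76 TPM in ESCs and at 1.24, 1.67 and 0.96 TPM in EpiLCs. It fell by 0.95 on the log2 scale (SE 0.24, adjusted p = 0.0178) without overlap, but the adjusted p was 0.0703 (-0.93) without EpiLC replicate 1 and 0.0535 (-0.78) without EpiLC replicate 3.

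The remaining beta chain genes and Itgbl1 were low, with no library above 5.73 TPM. Itgb3 lay between 1.09 and 3.65 TPM in ESCs, highest in replicate 2, and between 0.61 and 1.41 TPM in EpiLCs. The groups overlapped (-0.95, SE 0.54, adjusted p = 0.188), with -0.17 without ESC replicate 2. Its platelet partner Itga2b lay between 0.18 and 0.55 TPM. Itgb8, an alphaV partner that activates latent TGF-beta, stood at 1.12, 0.94 and 0.34 TPM in ESCs and at 1.85, 1.74 and 1.06 TPM in EpiLCs. EpiLC replicate 3 fell below ESC replicate 1, and the value of 0.93 (SE 0.45, adjusted p = 0.134) did not pass, with 0.54 (adjusted p = 0.211) without ESC replicate 3. Itgbl1 stood at 0.58, 5.73 and 0.45 TPM in ESCs and at 0.26, 0.65 and 0.09 TPM in EpiLCs. Its difference rested on ESC replicate 2, with -2.73 (SE 1.14, adjusted p = 0.0886) and -0.65 (adjusted p = 0.477) without that library, and -3.23 (adjusted p = 0.0413) without ESC replicate 3. Itgb6 was at most 0.08 TPM and Itgb2l at most 0.03 TPM, and neither was tested.

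The leukocyte alpha chains and Itgb2 were under 1 TPM throughout. Itgal rested on levels between 0.24 and 0.89 TPM in ESCs and between 0.10 and 0.20 TPM in EpiLCs, and fell (-2.24, SE 0.53, adjusted p = 0.0137). Without EpiLC replicate 1 (-2.06, adjusted p = 0.0620) or EpiLC replicate 2 (-2.13, adjusted p = 0.0572) the call was lost. Itgam lay between 0.11 and 0.16 TPM in ESCs and between 0.41 and 0.88 TPM in EpiLCs, and rose (2.10, SE 0.42, adjusted p = 0.00720). Their shared partner Itgb2 lay between 0.18 and 0.61 TPM and did not pass the test (0.22, adjusted p = 0.717). Itgad was listed at 0 in all 6 libraries and Itgax at 0 in 5. The 8 leukocyte markers summed to between 50.6 and 76.7 TPM in ESCs and between 23.4 and 33.1 TPM in EpiLCs, with 2 lower and 1 higher of 4 tested. Laptm5 went from between 33.9 and 57.9 TPM in ESCs to between 2.48 and 2.89 TPM in EpiLCs, and Coro1a from between 3.87 and 5.28 TPM to between 14.9 and 21.7 TPM. The defining marker Ptprc was at most 0.12 TPM and Tyrobp was at 0 in every library.

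**Figure D3:**
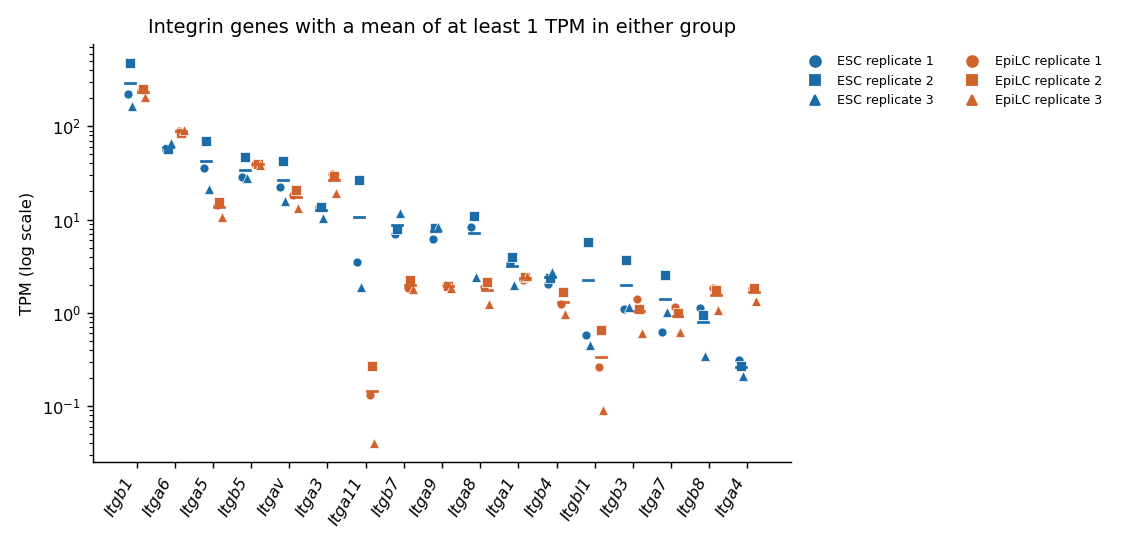
Level (TPM, log axis) of the 17 integrin genes with a group mean of at least 1 TPM, ordered by their mean in ESCs, in each library; markers give the replicate, colours the group and bars the group mean. Itga6, Itga3 and Itga4 lie higher in all EpiLC libraries, and ESC replicate 2 lies far above the other ESC libraries for Itga11 (26.4 TPM) and Itgb1 (476.6 TPM).

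Set against the supply of beta1, the 12 alpha chains that can pair with it summed to 172 ± 55.8 TPM in ESCs and 155.1 ± 11 TPM in EpiLCs, beside 288.7 ± 165.1 and 234.2 ± 23.1 TPM of Itgb1 (SD, n = 3). By library the alpha sum was 151.13, 235.21 and 129.65 TPM in ESCs and 161.84, 161 and 142.46 TPM in EpiLCs. Only ESC replicate 2 lay above all EpiLC libraries. The sum was below Itgb1 in every library, so beta1 transcripts were in excess in both groups. The make-up of the sum was different. Laminin-binding chains took 46.7%, 30.9% and 59.8% of it in ESCs, against 74.5%, 71.7% and 77.9% in EpiLCs. RGD-binding chains took 44.1%, 52.2% and 30.5% in ESCs and 21.3%, 23.8% and 17.7% in EpiLCs. Neither share overlapped between the groups, and in both the ESC libraries were spread more widely than the EpiLC libraries. In ESCs the RGD-binding share had the order of the fibroblast marker sum, highest in replicate 2 and lowest in replicate 3. The laminin-binding share had the reverse order. The part of feeder fibroblasts in these shares was not tested. Itga6 alone took 37.4% ± 13.5 in ESCs and 57.1% ± 5.84 in EpiLCs.

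**Figure D4:**
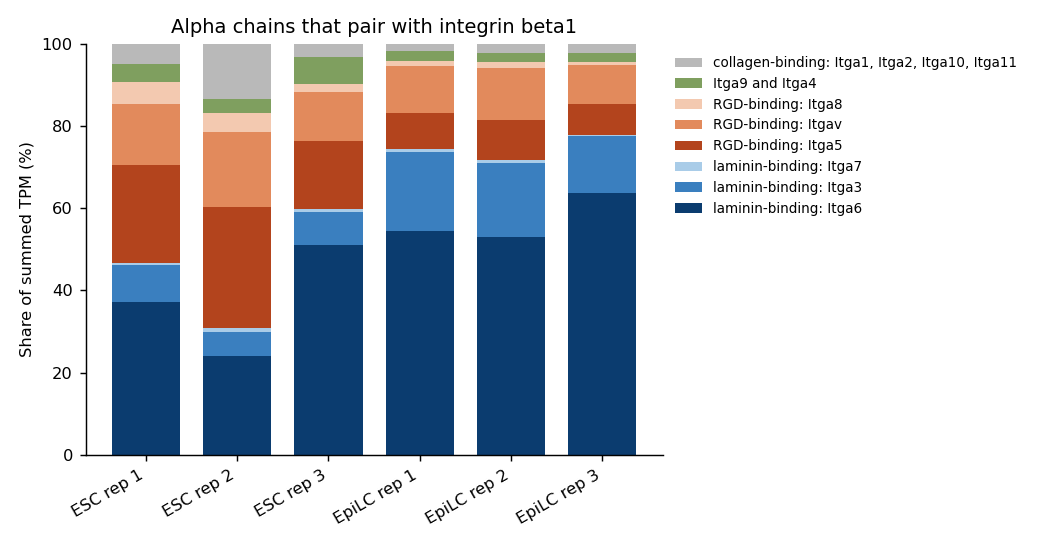
Share (%) of the summed TPM of the 12 alpha chains that can pair with integrin beta1, stacked by chain and coloured by ligand, in each of the 6 libraries. Laminin-binding chains (blue) fill between 71.7% and 77.9% of each EpiLC bar and between 30.9% and 59.8% of each ESC bar, lowest in ESC replicate 2.

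How 2 chains moved against each other was measured by 8 log2 ratios of TPM within a library. Itga5 to Itga6 went from -0.64, 0.30 and -1.62 in ESCs to -2.63, -2.45 and -3.09 in EpiLCs. Every EpiLC library had a lower ratio than every ESC library, with a difference of -2.07 between the means and of -1.59 when ESC replicate 2 was left out. In ESCs this ratio had the order of the fibroblast marker sum, and the part of feeder fibroblasts in it was not tested. Itgb4 to Itga6 differed by -1.48 and Itgav to Itgb5 by -0.75, in both cases without overlap. Lamb2 to Lamb1 differed by -0.28, and by -0.12 without ESC replicate 2. Itga6 to Itgb1 (0.73, and 0.26 without ESC replicate 2) and Itga3 to Itga6 (0.49) overlapped between the groups, each with p = 0.3 in the exact permutation test. For the other 6 ratios p was 0.1, the smallest this design allows, and 0.133 after Benjamini-Hochberg adjustment over the 8.

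The spread among ESC libraries had an order in part of these genes. Of the 32 genes tested, 12 (37.5%) had the order ESC replicate 2, then 1, then 3, which 11 of the 12 fibroblast markers also had, against 26.0% of all genes tested. They were Itga1, Itga5, Itga8, Itga11, Itgav, Itgb1, Itgb5, Itgbl1, Lama2, Lama4, Lamb1 and Lamb2. Col1a1, a defining fibroblast gene, stood at 90.5, 489.1 and 28.3 TPM in ESCs and at 6.63, 13.9 and 3.08 TPM in EpiLCs. In EpiLCs, Col1a1 and the genes just named except Itga1 and Lama2 also had the order 2, 1, 3, whereas Acta2 and Thy1 did not. The share of all genes with that order in EpiLCs was not counted. Of the 12 genes with the order in ESCs, Itga5, Itga8, Itga11, Lama4, Lamb1 and Lamb2 passed as lower without ESC replicate 2 and Itgb5 as higher. Itga1, Itgav, Itgb1, Itgbl1 and Lama2 did not pass. The part of feeder fibroblasts in the difference between ESCs and EpiLCs was not tested for any of these genes.

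**Figure D5:**
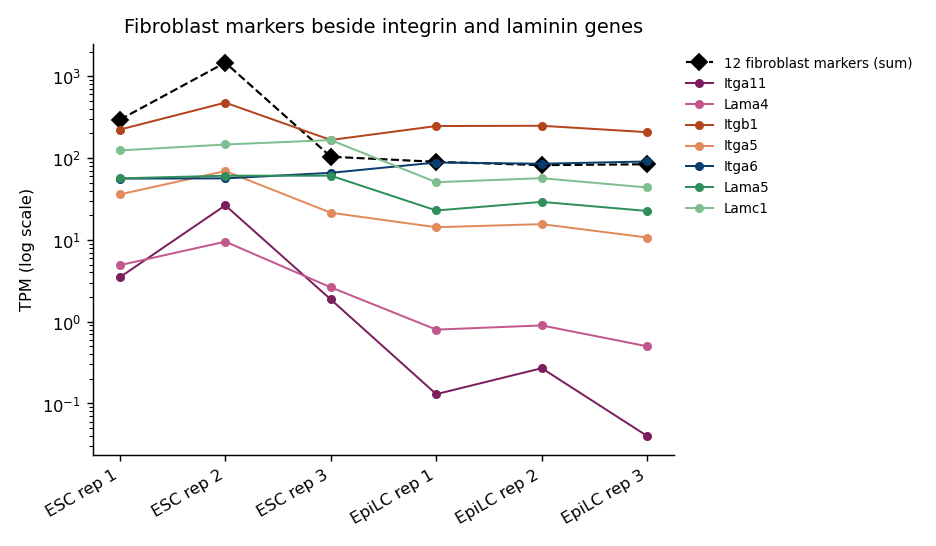
TPM (log axis) in each library of the summed 12 fibroblast markers (dashed) and of 7 integrin and laminin genes; lines only join the points of a gene. The marker sum peaks at 1469 TPM in ESC replicate 2, as do Itga11, Lama4, Itgb1 and Itga5, while Itga6 and Lamc1 are highest elsewhere.

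The markers of other cell types in which these genes are known to act were low or uneven. The 6 endothelial markers summed to 44.7, 30.9 and 41.3 TPM in ESCs and to between 37.7 and 39.9 TPM in EpiLCs, with 3 lower and 1 higher of 4 tested. The 5 basal keratinocyte markers, whose cells use Itgb4, summed to between 0.73 and 1.38 TPM in ESCs and between 0.15 and 0.34 TPM in EpiLCs, and 0 of the 5 had enough counts to be tested.

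The ligands and matrix partners of these receptors were mostly lower too. Of 39 matrix and basement membrane genes in the file, 36 were tested, of which 24 fell and 3 rose, against 22.8% and 22.6% of all genes tested, with a median log2 fold change of -1.33. Fn1, fibronectin and the ligand of alpha5-beta1, stood at 911, 1240 and 561.4 TPM in ESCs and at 87.3, 119 and 63.9 TPM in EpiLCs. Even the lowest ESC library was far above the highest EpiLC library (-3.37, SE 0.33, adjusted p = 0.000446), so fibronectin and its receptor chain Itga5 both fell. Fbln5 (-4.48), Thbs1 (-3.94) and Fbln2 (-3.85), further matrix proteins, fell more, yet these values were -2.75, -2.12 and -2.64 without ESC replicate 2, in which all 3 were highest. Thbs1 missed the threshold without any single EpiLC library (adjusted p between 0.0547 and 0.0703), and Fbln5 and Fbln2 without EpiLC replicate 1 or EpiLC replicate 3 (between 0.0609 and 0.0808). Without EpiLC replicate 1, 14 matrix genes were lower, and without EpiLC replicate 3, 16, in fits in which the genes lower over the whole table went from 3304 to 2100 and 2539. The 3 that rose were Cdh1, the ligand of alphaE-beta7 (1.06, SE 0.09, adjusted p = 0.000299), Dag1, the laminin receptor dystroglycan (0.35, SE 0.06, adjusted p = 0.00414), and Fras1, a basement membrane protein named after its value was seen (0.76, adjusted p = 0.0170). Dag1 stood at 66.7, 71.05 and 63.5 TPM in ESCs and at 84.9, 90.5 and 89.5 TPM in EpiLCs. Like Itga6 and Itga3, it was thus a laminin receptor with a higher level in every EpiLC library. Not all laminin receptor chains went this way: Itgb4, the partner of alpha6, was lower in every EpiLC library, and Itga7 overlapped between the groups.

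Inside the cell, 38 of 39 genes of the adhesion machinery were tested, of which 15 fell and 6 rose, against 22.8% and 22.6% of all genes tested, with a median log2 fold change of -0.27. The 6 that rose are thus a smaller share of the list than of all genes. Fermt1, a kindlin that activates integrins, stood at 1.40, 1.57 and 0.60 TPM in ESCs and at 6.85, 7.93 and 5.78 TPM in EpiLCs. It rose without overlap (2.49, SE 0.34, adjusted p = 0.00156), as did the scaffold Bcar1 (1.35), the kinase Fyn (0.87) and Ilk, the integrin-linked kinase (0.55). The call on Ilk (adjusted p = 0.0412) was lost without ESC replicate 1 or any single EpiLC library, at an adjusted p between 0.0592 and 0.120. Tns3 (-2.62) and Parvb (-2.52), which link integrins to actin, fell, as did Nedd9 (-2.87) and Cav1 (-4.65), a caveolar protein. Nedd9 and Cav1 were highest in ESC replicate 2, and without it their values were -1.96 and -3.24. Cav1 missed the threshold without EpiLC replicate 1 (adjusted p = 0.0522). The number of adhesion genes lower was 10 without EpiLC replicate 1, 10 without EpiLC replicate 2, 11 without EpiLC replicate 3 and 18 without ESC replicate 3. Over the whole table, 2100, 2411, 2539 and 3431 genes were lower in these fits, against 3304 with all libraries.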

How the data were processed

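RNA-seq libraries of WT ESCs and EpiLCs (3 each) were analysed. The authors trimmed adapters with cutadapt 1.16, aligned the stranded 76-nt single-end reads to mm10 (STAR 2.5.2a) and quantified genes with RSEM 1.3.0. The authors deposited RSEM expected counts, not normalized, in which reads mapping to several genes are divided between them, and TPM, scaled for transcript length and library. The labels give 48 h for EpiLCs, whereas the culture methods give a longer time.

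Expected counts were rounded, normalized with TMM (factors 0.979 to 1.02), filtered with filterByExpr and tested with edgeR 4.0.16 (quasi-likelihood, R 4.3.3), with Benjamini-Hochberg adjustment over all genes tested. Alternatives were DESeq2 1.42.0, upper-quartile scaling, other filters, limma 3.58.1 on log2(TPM + 1) and log2(TPM + 0.1), a replicate block and leaving out each library. The gene tests were tried on simulated data. P-values measure the spread between these cultures. Genes with a group mean of at least 1 TPM were described by library. For the adhesion and matrix lists, up to 4 called genes a direction with a mean of at least 5 TPM were named. Members and lists were chosen with earlier results of these data known. The values of 1 laminin chain are not reported here, though it is in the counts and sums. Gene positions are from RefSeq (GRCm38.p6).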

Additional observations from a re-analysis of the deposited data

How the results depend on the processing

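Upper-quartile scaling changed no call or direction among the 44 genes named with a fit. Over all alternatives, 25 of the 44 kept their call and direction, and 19 did not under at least 1. With a filter of 10 counts in every sample, 3 integrin and laminin genes were higher, all integrins. Leaving out single libraries gave between 4 and 10 integrins and between 14 and 29 matrix genes lower, and log2 fold changes from -1.01 to 0.084 for Itga7, from -0.62 to 0.21 for Itgb1 and from -0.0030 to 0.42 for Itgb5. Itgbl1 was called by DESeq2 (-2.81). Lama2 was lost with limma (-0.34 and -1.09), Lamb3 with no filter (-0.77) and with limma on log2(TPM + 0.1) (-0.70), and Itga10 with DESeq2 (1.03). The cause was not tested. Same-numbered ESC and EpiLC libraries deviated together with r of 0.0067, 0.19 and 0.17. ESC replicates 2 and 3 correlated best with the EpiLC library of their own number, and ESC replicate 1 with EpiLC replicate 3 (0.084). Col1a1 and most integrin and laminin genes that shared its order of ESC libraries kept that order in EpiLCs. The main fit did not pair the libraries, and whether those of the same replicate number were grown as pairs was not tested. With the number as a replicate block, 6085 genes were called, and 18 of the integrin and laminin genes fell and 5 rose. Itgav (-0.57), Itgb8 (1.00) and Itgbl1 (-2.39) were then called, and Lamb3 (-0.81) and Itga10 (1.02) were not. Low counts limit what can be said of leukocyte integrins, Itga2, Itga11, Itgb6, Itgbl1 and Lamc3.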
